A study of Homo sapiens with 4 samples.

Results

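The SR splicing factor family is described here by 10 of its genes, SRSF1, SRSF2, SRSF3, SRSF4, SRSF5, SRSF6, SRSF7, SRSF9, SRSF10 and SRSF11. They were chosen by symbol, with earlier results of these data known, and all 10 were found among the 22494 features of the deposited tables. Shares of all genes set beside them below are thus descriptive. mRNA selected on oligo(dT) beads was sequenced from cells that had received mimics of the tRNA fragment tRF-20-S998LO9D and from cells that had received the negative control of mimics. Both RL-95-2 and HEC-1-A, human cell lines of endometrial cancer, were treated this way. The 4 libraries were the RL-95-2 mimic, the RL-95-2 control, the HEC-1-A mimic and the HEC-1-A control, 1 library of each. The labels give no separate cultures, so the variation among cultures is unknown, and p-values over both lines measure only the spread between these samples.

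SR proteins carry RNA recognition motifs followed by a domain rich in arginine and serine. They bind enhancer sequences in exons, help to recruit the U1 and U2AF components of the spliceosome, and also act in mRNA export and translation. Kinases of the SRPK and CLK families phosphorylate the arginine-serine domain. Many SR genes limit their own level through poison exons, whose inclusion sends the mRNA to nonsense-mediated decay. In GENCODE release 29 each of the 10 genes has between 1 and 6 transcripts of the nonsense-mediated decay class, and counts per gene do not separate these from the coding mRNA.

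Total counts ranged from 33575882 to 46220053 per library, and the 10 genes held 2184 to 20738 counts each in a library. All 10 passed the filter on low counts. Intervals given below cover counting error only. In bulk RNA, fewer cells of a type and less RNA per cell cannot be told apart. All 7 epithelial markers were at 83.2 CPM or more in every library. Their summed level was 4184 CPM in the RL-95-2 mimic and 2904 CPM in the RL-95-2 control library, and 1902 CPM in the HEC-1-A mimic and 2281 CPM in the HEC-1-A control library. The sum was thus higher with the mimic in RL-95-2 and lower in HEC-1-A, as for most SR genes, while 4 of the 7 markers had a ratio above 0 in RL-95-2 and 1 of 7 in HEC-1-A. KRT8 alone accounted for 1444 CPM in the RL-95-2 mimic and 388 CPM in the RL-95-2 control library. Of 8 endometrial markers, PAX8 was at 220 to 353 CPM, whereas SOX17 and PGR had 0 counts in all 4 libraries. The other markers of that list were low. ESR1 was at most 0.974 CPM and HOXA10 at most 5.56 CPM in any library. HOXA11 was at most 1.81 CPM in HEC-1-A and 9.41 CPM in RL-95-2. EMX2 and MUC16 had 0 counts in HEC-1-A, and at most 0.82 and 5.397 CPM in RL-95-2. The summed level of 6 blood and immune markers was at most 8.59 CPM in any library. That of 5 endothelial markers was at most 24.7 CPM, nearly all from CDH5 in RL-95-2. That of 6 fibroblast markers, mainly COL1A1, was 58.9 CPM in the RL-95-2 mimic and 81.2 CPM in the RL-95-2 control library, against 7.80 and 4.05 CPM in HEC-1-A. The part of these markers in the results was not tested.

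Promoter windows from RefSeq (GRCh38.p14) were matched for 9 of the 10 genes, all but SRSF2, with 11 windows because SRSF7 and SRSF11 have 2 annotated starts each. The last 100 bases before the start are shown for SRSF3, SRSF6 and SRSF7, whose mRNAs were more abundant in the RL-95-2 mimic library, and for SRSF9, whose mRNA was not. This choice follows the ratios, so the shown stretches cannot relate motifs to levels. Capitals mark the letters of 4 motifs. TATAAA was searched on the given strand. The others were searched on both strands. The core of the CREB site is TGACG, which reads CGTCA on the opposite strand. The core of the GC box is GGGCGG, which reads CCGCCC on the opposite strand. The CCAAT box reads ATTGG on the opposite strand. No match in the windows of these genes overlapped another. RefSeq starts can differ from the gene bounds of GENCODE given further on. The SRSF3 stretch is chr6:36594262-36594361 on the plus strand, that of SRSF6 is chr20:43457796-43457895 on the plus strand, that before the downstream start of SRSF7 is chr2:38751362-38751461 on the minus strand, and that of SRSF9 is chr12:120469749-120469848 on the minus strand.
SRSF3: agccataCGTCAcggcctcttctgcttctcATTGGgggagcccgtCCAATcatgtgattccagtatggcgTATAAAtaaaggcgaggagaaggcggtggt
SRSF6: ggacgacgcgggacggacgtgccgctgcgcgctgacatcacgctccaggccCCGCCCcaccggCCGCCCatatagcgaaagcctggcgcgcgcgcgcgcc
SRSF7: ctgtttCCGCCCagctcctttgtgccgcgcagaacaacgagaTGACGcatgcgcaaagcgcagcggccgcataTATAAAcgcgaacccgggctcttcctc
SRSF9: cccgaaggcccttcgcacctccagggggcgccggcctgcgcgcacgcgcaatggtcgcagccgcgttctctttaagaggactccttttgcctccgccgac

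TATAAA, the core of the TATA box, occurred in the 250-base windows of SRSF3 and SRSF7, beginning 30 and 27 bases before the start. It was in 2 of the 11 windows of these genes and in 6.8% of all 35116 windows of that length. TGACG was found in windows of 5 of the 9 genes (SRSF1, SRSF3, SRSF5, SRSF7 and SRSF11). That was 6 of the 11 windows, against 21.2% of all windows. GGGCGG was found for SRSF4, SRSF6 and SRSF7, in 4 of the 11 windows, and in 42.6% of all windows. CCAAT was found for SRSF3 alone of the 9, in 1 of the 11 windows, and in 32% of all windows. The window before the upstream start of SRSF7, not shown, held GGGCGG only. The windows of SRSF9 and SRSF10 held none of the 4. Of the genes with none, SRSF10 had an RL-95-2 log2 ratio of 0.72 and SRSF9 one of -0.08. SRSF11, with TGACG in both windows, had 0.03. The genes with TATAAA, SRSF3 and SRSF7, had 1.37 and 0.72. A relation between motifs and ratios was not tested. The motifs are matches of letters and say nothing of binding.

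Most SR mRNAs were more abundant in the mimic library than in the control library of RL-95-2, and slightly less abundant in the mimic library than in the control library of HEC-1-A. The median log2 ratio of mimic over control over the 10 genes was 0.72 in RL-95-2, where the median over the 13152 genes that averaged 1 CPM or more was 0.00. In HEC-1-A it was -0.14, where the median over 12981 genes was 0.02. The ratio was above 0 for 9 of the 10 genes in RL-95-2, against 50.1% of all genes, and below 0 for 1 (49.9%). In HEC-1-A it was above 0 for 1 of the 10 genes (53.6% of all genes) and below 0 for 9 (46.4%). The same 9 genes, all but SRSF9, were below 0 in HEC-1-A and above 0 in RL-95-2, a pattern held by 26% of the 11914 genes measured in both lines. Opposite signs with both counting intervals off 0 were seen for all but SRSF11, thus also for 9 of the 10 genes, and for 26.9% of all genes. That set includes SRSF9, whose signs ran the other way round. Counting intervals narrow as counts rise, and the 26.9% includes genes down to a mean of 1 CPM. The SR genes have high counts, so these shares are not matched for level. With the mimic, 3 of the 10 genes reached 2-fold upward in RL-95-2 (4.71% of all genes) and 0 reached 2-fold downward (6.52%). In HEC-1-A, 0 reached 2-fold upward (0.871%) and 0 downward (0.239%). The 3 genes were SRSF1, SRSF2 and SRSF3, all below 0 in HEC-1-A, a combination found in 2.05% of genes. The RL-95-2 control was the lowest of the 4 libraries for 5 of the 10 genes, SRSF1, SRSF2, SRSF3, SRSF5 and SRSF6, and for 25.5% of all genes. Among all genes that differed 2-fold or more, the mimic library was the higher one for 41.9% in RL-95-2. That share was 56.1% with scaling by library total, which moved the median of all genes to 0.13. In HEC-1-A it was 78.5%, and 50.0% on log2(FPKM + 1).

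**Figure D1:**
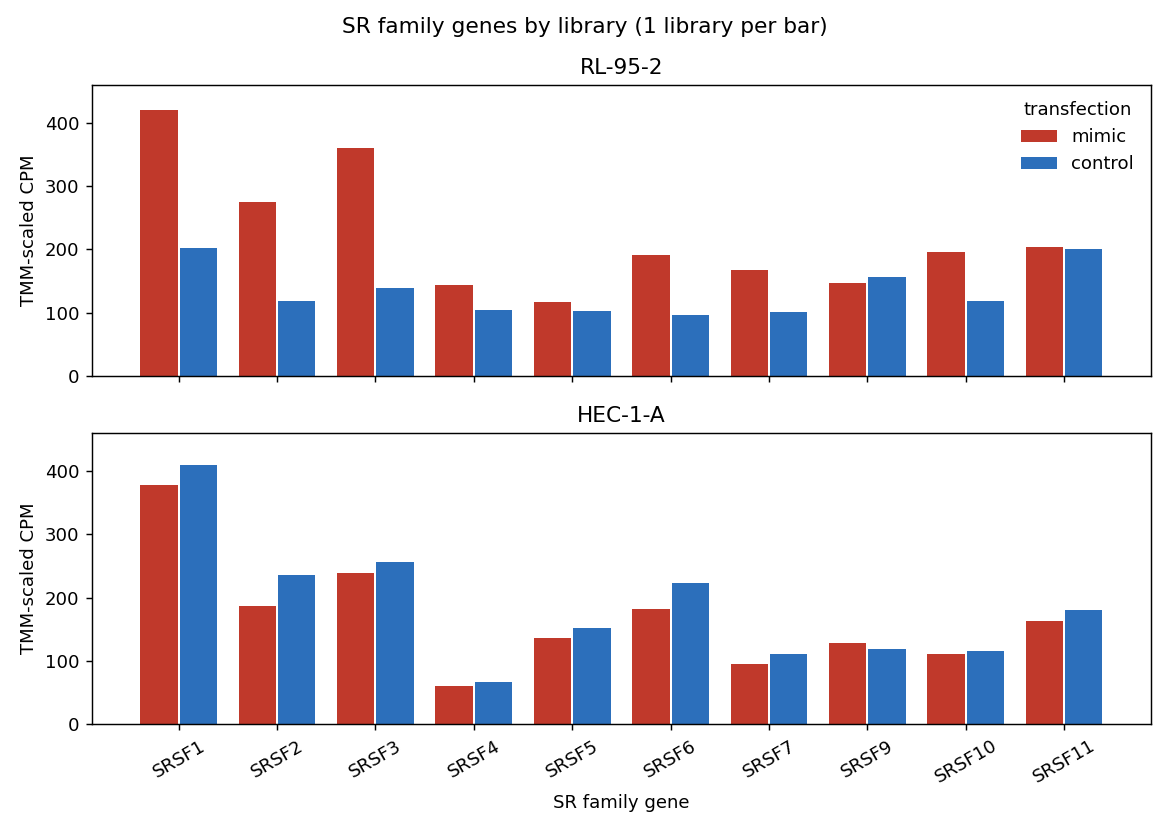
TMM-scaled CPM of the 10 SR genes in RL-95-2 (upper panel) and HEC-1-A (lower panel), with 1 bar per library and the mimic left of the control. In RL-95-2 the mimic bars of SRSF1, SRSF2, SRSF3 and SRSF6 stand at 421, 276, 360 and 191 CPM beside control bars of 202, 118, 140 and 95.7 CPM, while the HEC-1-A bars of each gene lie close together.

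SRSF3, the smallest SR protein and an adapter for mRNA export, had the highest ratio of the family in RL-95-2. It lies on chromosome 6 at 36594353 to 36605600 (plus strand, GRCh38, ENSG00000112081). It stood at 360 CPM with the mimic and 140 CPM with the control in RL-95-2, and at 239 CPM with the mimic and 256 CPM with the control in HEC-1-A. The RL-95-2 mimic was thus the highest and the RL-95-2 control the lowest of the 4. The RL-95-2 libraries differed 2.58-fold (log2 ratio 1.37, with a 95% counting interval of 1.32 to 1.41), and it ranked at place 218 from the top of 13152 genes. In HEC-1-A the log2 ratio was -0.10 (interval -0.14 to -0.05).

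SRSF2, which recognises exonic enhancers and is recurrently mutated in myeloid neoplasms, lies on chromosome 17 at 76734115 to 76737374 (minus strand, ENSG00000161547). Its level was 276 CPM in the RL-95-2 mimic and 118 CPM in the RL-95-2 control library, a 2.33-fold difference (log2 ratio 1.22, interval 1.17 to 1.27). The HEC-1-A level was 187 CPM with the mimic and 235 CPM with the control (log2 ratio -0.33, interval -0.37 to -0.28), the lowest ratio of the family in that line. The RL-95-2 control library was again the lowest of the 4. SRSF2 shares 1106 exonic bases with MFSD11, a gene on the opposite strand, and the strand setting of the counts is not given in the sources used here. MFSD11 had 1780 counts in the RL-95-2 mimic and 990 in the RL-95-2 control library, beside 13580 and 4621 counts of SRSF2. The log2 ratio of MFSD11 was 0.51 in RL-95-2 and 0.08 in HEC-1-A. The effect of the overlap on the SRSF2 counts was not tested.

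SRSF1, one of the first SR proteins described and an oncoprotein when overexpressed, lies on chromosome 17 at 58003360 to 58007346 (minus strand, ENSG00000136450). It stood at 421 CPM in the RL-95-2 mimic and 202 CPM in the RL-95-2 control library, a 2.08-fold difference (log2 ratio 1.06, interval 1.02 to 1.09). In HEC-1-A it stood at 379 CPM with the mimic and 409 CPM with the control (log2 ratio -0.11, interval -0.14 to -0.08). The RL-95-2 control library stood apart below the other 3. SRSF6, which also acts on the splicing of tau mRNA and lies on chromosome 20 at 43457928 to 43464247 (plus strand, ENSG00000124193), had the same shape. Its level was 191 CPM in the RL-95-2 mimic and 95.7 CPM in the RL-95-2 control library (log2 ratio 0.99, interval 0.94 to 1.05). The HEC-1-A level was 181 CPM with the mimic and 224 CPM with the control (log2 ratio -0.30, interval -0.35 to -0.26). SRSF6 lay just under the 2-fold mark at 1.99-fold, and it passed the mark when library totals set the scale, on both FPKM scales and with GC and length trends removed.

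SRSF7, an SR protein with a zinc knuckle that also serves in mRNA export, and SRSF10, which represses splicing when it loses its phosphates in heat shock and mitosis, had intermediate ratios in RL-95-2. SRSF7 lies on chromosome 2 at 38743599 to 38751494 (minus strand, ENSG00000115875), and SRSF10 on chromosome 1 at 23964804 to 23980927 (minus strand, ENSG00000188529). SRSF7 was at 167 CPM in the RL-95-2 mimic and 101 CPM in the RL-95-2 control library (1.65-fold, log2 ratio 0.72, interval 0.66 to 0.77). In HEC-1-A it was at 95.3 CPM with the mimic and 111 CPM with the control (log2 ratio -0.22, and -0.34 on both FPKM scales). SRSF10 was at 196 CPM in the RL-95-2 mimic and 119 CPM in the RL-95-2 control library (1.65-fold, log2 ratio 0.72, interval 0.67 to 0.77). In HEC-1-A, SRSF10 was at 111 CPM with the mimic and 116 CPM with the control, and its interval of -0.12 to -0.00 came closest to 0 of the 9 genes below it. For both genes the RL-95-2 mimic library was the highest of the 4, and the other 3 lay between 95.3 and 119 CPM.

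SRSF4, which has a long arginine-serine domain, lies on chromosome 1 at 29147743 to 29181987 (minus strand, ENSG00000116350). It had 143 CPM in the RL-95-2 mimic and 104 CPM in the RL-95-2 control library (1.38-fold, log2 ratio 0.46, interval 0.41 to 0.52). In HEC-1-A it had 60.0 CPM with the mimic and 65.9 CPM with the control (log2 ratio -0.13, interval -0.22 to -0.05). SRSF5, first found in rat as a gene induced in regenerating liver, lies on chromosome 14 at 69726900 to 69772005 (plus strand, ENSG00000100650). It had 118 CPM in the RL-95-2 mimic and 103 CPM in the RL-95-2 control library (log2 ratio 0.18, interval 0.13 to 0.24, but 0.31 when library totals set the scale and 0.34 on log2(FPKM + 1)), beside 136 CPM with the mimic and 152 CPM with the control in HEC-1-A (log2 ratio -0.16). Both RL-95-2 libraries of SRSF4 were above both of HEC-1-A, and both of SRSF5 were below.

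SRSF11 and SRSF9 had the lowest ratios of the family in RL-95-2, next below SRSF5 at 0.18. SRSF11, a less typical member of the family, lies on chromosome 1 at 70205682 to 70253052 (plus strand, ENSG00000116754), and SRSF9, whose arginine-serine domain is short, on chromosome 12 at 120461668 to 120469793 (minus strand, ENSG00000111786). SRSF11 had 205 CPM in the RL-95-2 mimic and 201 CPM in the RL-95-2 control library (log2 ratio 0.03, interval -0.02 to 0.07). That ratio was 0.16 when library totals set the scale, 0.16 on log2(FPKM + 1) and 0.17 on log2(FPKM + 0.1), all above the interval. In HEC-1-A it had 163 CPM with the mimic and 180 CPM with the control (log2 ratio -0.14). SRSF9 had 147 CPM in the RL-95-2 mimic and 156 CPM in the RL-95-2 control library, against 128 CPM with the mimic and 119 CPM with the control in HEC-1-A. Its log2 ratio was -0.08 in RL-95-2 (interval -0.13 to -0.04), but 0.04 when library totals set the scale and 0.06 on log2(FPKM + 1), so its direction there depends on the scaling. In HEC-1-A it was 0.11 (interval 0.05 to 0.17) and above 0 under every alternative tried. SRSF9 shares 1729 exonic bases with GATC on the opposite strand, which had log2 ratios of 0.19 in RL-95-2 and -0.04 in HEC-1-A. SRSF1 shares 1890 exonic bases with an annotated gene on its own strand, AC015813.2. Pseudogenes named after SRSF1, SRSF9 and SRSF10 are annotated, and how reads that fit both a gene and such a copy were counted is not given in the sources used here.

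**Figure D2:**
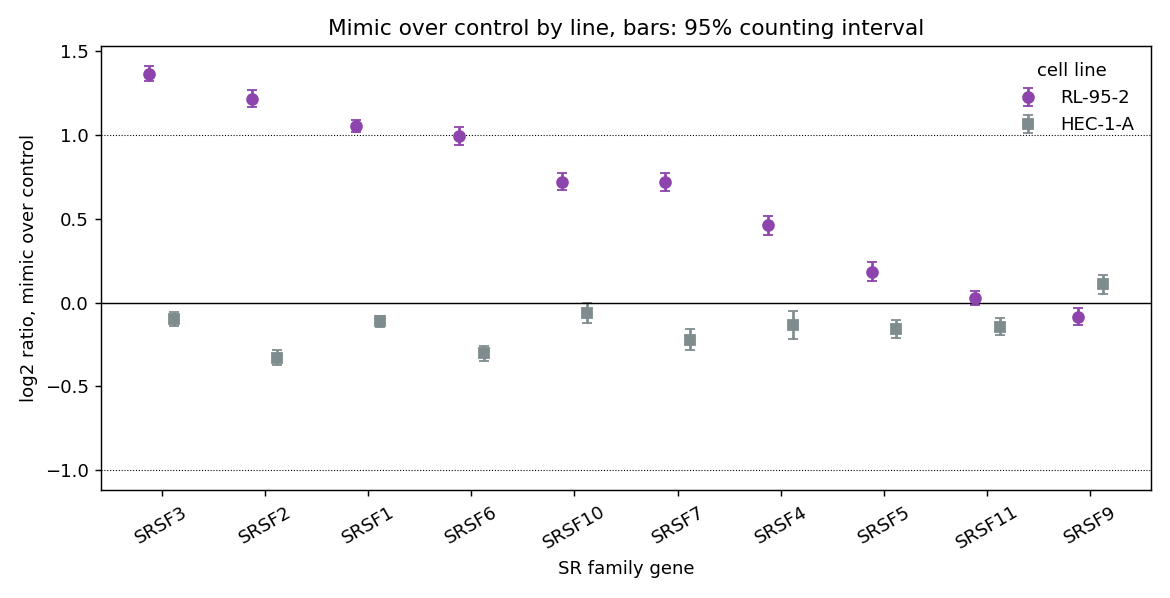
Log2 ratio of mimic over control for each SR gene in RL-95-2 (circles) and HEC-1-A (squares), ordered by the RL-95-2 ratio. Bars are 95% counting intervals from the 2 counts and dotted lines mark 2-fold; the RL-95-2 ratios run from 1.37 for SRSF3 to -0.08 for SRSF9 (0.04 for SRSF9 with scaling by library total), and the HEC-1-A ratios lie between -0.33 and 0.11.

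Over both lines no SR gene passed the test. The edgeR quasi-likelihood test with the line as a block called 0 of the 10 genes and 0 of 15957 genes at an FDR of 0.05 (0%), with 167 genes at an unadjusted p under 0.05 (1.05%), none of them an SR gene. The highest log2 fold change of the family was that of SRSF3 (log2 fold change 0.64, SE 0.39, n = 2 per transfection, edgeR adjusted p = 0.9999), with a ratio above 0 in 1 of the 2 lines. The log2 fold changes of the others ran from -0.06 for SRSF11 to 0.47 for SRSF1, with the same edgeR adjusted p of 0.9999. DESeq2 called 2 features and limma on log2(FPKM + 0.1) called 3, PPAN-P2RY11, SCHIP1-1 and RP11-762I7.5, the first 2 of which were the DESeq2 calls. They were named after their values were seen and none is an SR gene. The fit left 1 residual degree of freedom, which holds how far the mimic over control ratio of a gene differed between the lines. The opposite signs described above thus enter the error of this test, and the high p is no separate result. A p this high does not show that the genes did not differ.

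Between the lines, 1 of the 10 genes differed by the same model. SRSF4 was 1.94-fold higher in RL-95-2 than in HEC-1-A (log2 fold change 0.96, SE 0.25, n = 2 libraries per line, edgeR adjusted p = 0.028), where 35.1% of all genes were called, 18.3% higher and 16.7% lower. The difference was 1.25 on the log2 scale between the mimic libraries and 0.66 between the control libraries. SRSF4, SRSF9, SRSF10 and SRSF11 had both RL-95-2 libraries above both HEC-1-A libraries, as did 38.6% of all genes, and SRSF5 had both below, as did 36.9%. For the 4 genes with the highest RL-95-2 ratios the order of the lines turned with the transfection. By arithmetic, this change equals the RL-95-2 ratio minus the HEC-1-A ratio of the gene, so it is no separate result. SRSF3 was 0.59 higher in RL-95-2 on the log2 scale between the mimic libraries, and differed by -0.87 between the control libraries. SRSF2 had 0.56 and -0.99, SRSF1 0.15 and -1.02, and SRSF6 0.07 and -1.22 in the same comparisons. Each of these 4 genes was thus closer between the lines in the mimic libraries than in the control libraries, as were SRSF5 and SRSF9. SRSF4, SRSF7, SRSF10 and SRSF11 were farther apart in the mimic libraries. The order of the lines also turned for SRSF7, at 0.81 between the mimic libraries and -0.13 between the control libraries. The shares of all genes with such a turn, or closer in the mimic libraries, were not computed.

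Per length, SRSF1 and SRSF9 mRNAs had the highest mean FPKM of the family over the 4 libraries. By library the order varied, with SRSF1 at place 4 in the RL-95-2 control and SRSF9 at place 3 in the HEC-1-A control. In HEC-1-A, SRSF1 led at 118 FPKM with the mimic and 130 FPKM with the control, above SRSF9 at 92.3 and 87.4 FPKM, and their ranges did not overlap. SRSF5 at 80.3 and 93.7 FPKM overlapped SRSF9 and also SRSF2 at 62.7 and 86.3 FPKM. SRSF11, SRSF3, SRSF7, SRSF10 and SRSF6 followed with means of 53.8 to 40.9 FPKM, each overlapping the next, and SRSF4 was lowest at 21.9 and 24.5 FPKM. In RL-95-2 the ranges of all neighbours in the order overlapped, since the mimic and control values of most genes lay far apart. There SRSF1 was at 144 FPKM with the mimic and 62.5 FPKM with the control, while SRSF9 was at 117 and 112 FPKM and led in the control library. SRSF6 was lowest in RL-95-2, at 41.8 FPKM with the mimic and 19.1 FPKM with the control. Even the lowest of the 10 by mean FPKM over the libraries, SRSF4, was above 91.5% of all features.

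The summed level of the 10 genes was 869 FPKM in the RL-95-2 mimic library and 521 FPKM in the RL-95-2 control library, beside 595 FPKM with the mimic and 677 FPKM with the control in HEC-1-A. The RL-95-2 control was the lowest and the RL-95-2 mimic the highest of the 4. The make-up of the family differed as well. SRSF1, SRSF2 and SRSF3 took 16.6%, 12.7% and 9.32% of the summed FPKM in the RL-95-2 mimic library, against 12.0%, 7.68% and 5.49% in its control. SRSF9 took 13.4% with the mimic and 21.6% with the control. In HEC-1-A the share of SRSF1 was 19.9% with the mimic and 19.2% with the control, and that of SRSF9 was 15.5% and 12.9%.

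**Figure D3:**
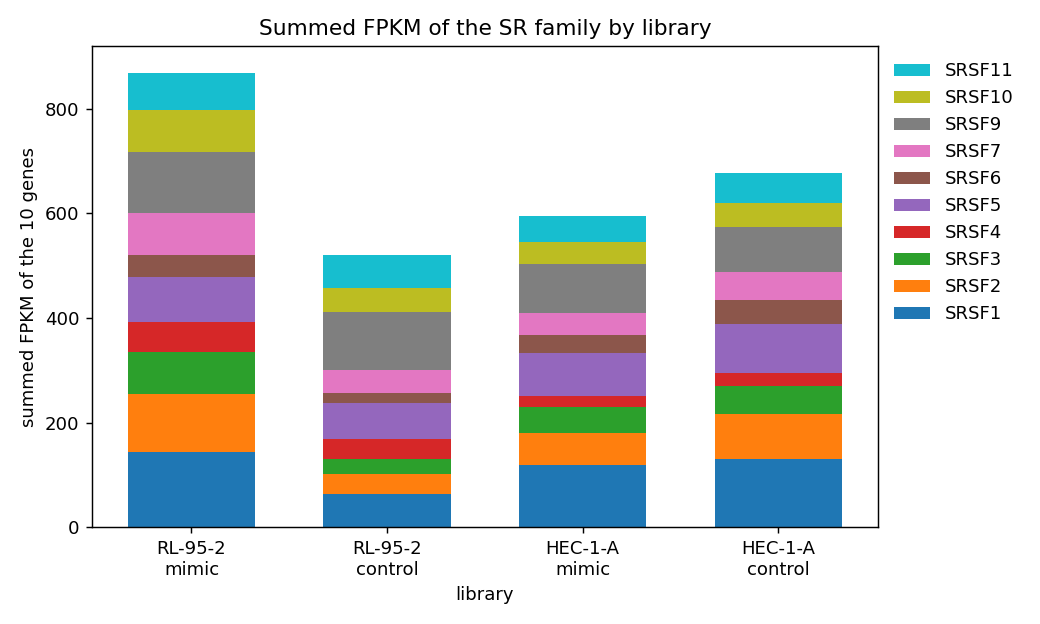
Summed FPKM of the 10 SR genes in each library, stacked by gene, with the mimic left of the control in each line. The stacks reach 869 and 521 FPKM in RL-95-2 and 595 and 677 FPKM in HEC-1-A, and the SRSF9 segment is nearly as tall in the RL-95-2 control (112 FPKM) as in the mimic (117 FPKM).

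The deposited counts and FPKM values together imply a length for each gene in each library, the number of bases by which its count was divided. For SRSF3 it was 4742 bases in the RL-95-2 mimic and 4761 bases in the RL-95-2 control library, and 4758 and 4715 bases in HEC-1-A, so the 4 values lay close together. SRSF2 differed more, with 2670 bases in the RL-95-2 mimic and 2888 bases in the RL-95-2 control library, against 2909 bases in the HEC-1-A mimic and 2688 bases in the HEC-1-A control library. The longer value thus went with the lower SRSF2 level within each line. Among 10643 genes with at least 100 counts in every library, the shift of SRSF2 from the median shift was larger than that of 90.1% in RL-95-2 and 90.9% in HEC-1-A. Its log2 ratio of FPKM was 1.46 in RL-95-2 and -0.46 in HEC-1-A. The ratio of TMM-scaled counts was 1.22 and -0.33. With counts scaled by library total it was 1.35 and -0.35, so part of the gap in RL-95-2 goes with the scaling. SRSF7 had 2198 bases in the HEC-1-A mimic and 2043 bases in the HEC-1-A control library, but 2199 and 2235 bases in RL-95-2. How the authors set these lengths is not given in the sources used here.

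Other genes of the splicing machinery were set beside the family from lists of known function. Among 31 SR-like and other proteins with an arginine-serine domain, the median log2 ratio was 0.27 in RL-95-2, with 23 above 0, and -0.08 in HEC-1-A, with 10 above 0. The splicing activator TRA2B was the highest of them in RL-95-2, at 200 CPM with the mimic and 100 CPM with the control (log2 ratio 0.99), and had -0.12 in HEC-1-A. SRSF12 was the lowest in RL-95-2 at -0.62, from 75 counts with the mimic and 92 with the control. SRSF8, named after its values were seen, had log2 ratios of 0.85 in RL-95-2 and -0.23 in HEC-1-A. In HEC-1-A the extremes were RSRC2 at 0.21 and LUC7L3 at -0.30. None of the 31 was at least 2-fold apart in either line.

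Core spliceosome genes had a median log2 ratio of 0.45 in RL-95-2, with 31 of 34 above 0, and of -0.11 in HEC-1-A, with 27 of 34 below 0. U2AF1, the subunit of U2AF that reads the end of the intron, was the highest in RL-95-2 at 1.28 and the lowest in HEC-1-A at -0.48. These values are uncertain, because U2AF1L5 is a near-identical annotated copy and reads may be split between them. The 2 genes summed had 128 CPM in the RL-95-2 mimic and 75.3 CPM in the RL-95-2 control library (log2 ratio 0.77), and a log2 ratio of -0.18 in HEC-1-A. SNRPA, a protein of the U1 particle, was the lowest in RL-95-2 at -0.76, and SNRPG, an Sm ring protein, was the highest in HEC-1-A at 0.24. The hnRNP genes, whose products often oppose SR proteins, had a median of 0.17 in RL-95-2, with 20 of 28 above 0, and of -0.04 in HEC-1-A. Their extremes were HNRNPAB at 0.82 and HNRNPLL at -0.52 in RL-95-2, and HNRNPL at 0.45 and HNRNPH2 at -0.27 in HEC-1-A.

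The kinases, phosphatase subunits and import receptors that act on SR proteins had medians of -0.02 in RL-95-2, with 7 of 16 above 0, and of 0.05 in HEC-1-A, with 11 of 15 above 0. PPP1CB, a catalytic subunit of protein phosphatase 1, was at 306 CPM in the RL-95-2 mimic and 603 CPM in the RL-95-2 control library (log2 ratio -0.98), the lowest there, and was the highest in HEC-1-A at 0.20. SRPK3 was the highest in RL-95-2 at 0.67, from 82 and 40 counts, and PRPF4B, a spliceosomal kinase, the lowest in HEC-1-A at -0.31. The SR protein kinase genes SRPK2 and CLK1, named after their values were seen, had -0.75 and -0.67 in RL-95-2 and 0.10 and 0.12 in HEC-1-A. Their signs were the opposite of those of most SR genes in both lines, but the kinases of the list were mixed. SRPK1, CLK3, CLK4 and DYRK1A had the signs of SRPK2 and CLK1, with CLK4 at only -0.03 in RL-95-2. CLK2 and PRPF4B had the signs of most SR genes, at 0.11 and 0.51 in RL-95-2 and -0.11 and -0.31 in HEC-1-A. SRPK3 was too low in HEC-1-A to count as measured.

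**Figure D4:**
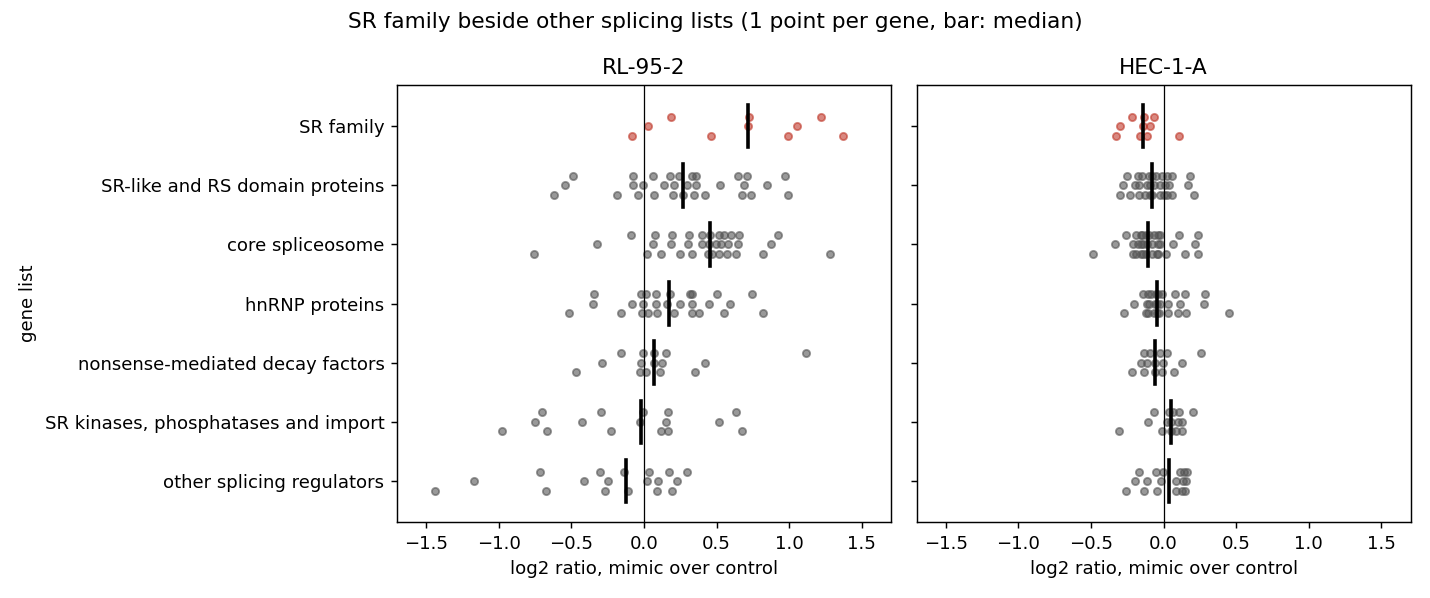
Log2 ratio of mimic over control in RL-95-2 (left panel) and HEC-1-A (right panel) for the SR family and 6 other lists of splicing and decay genes, with 1 point per gene measured at a mean of at least 1 CPM and a bar at the median. In RL-95-2 the medians run from 0.72 for the SR family and 0.45 for the core spliceosome to -0.12 for other splicing regulators, and in HEC-1-A all 7 medians lie between -0.14 and 0.05.

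Other splicing regulators had medians of -0.12 in RL-95-2, with 8 of 18 above 0, and of 0.04 in HEC-1-A, with 9 of 18. QKI, which controls splicing and RNA stability, was the lowest in RL-95-2 at -1.44 (196 CPM with the mimic and 532 CPM with the control). The epithelial regulator ESRP1, named after its values were seen, was the other gene of the list at least 2-fold lower there (log2 ratio -1.17). The highest was MBNL3 at 0.30, and in HEC-1-A the extremes were RBM4 at 0.16 and CELF2 at -0.26. Nonsense-mediated decay factors, including the exon junction complex, had medians of 0.07 in RL-95-2 and -0.06 in HEC-1-A. RBM8A, an exon junction protein, was the highest in RL-95-2 at 141 CPM with the mimic and 65.1 CPM with the control (log2 ratio 1.12), and SMG1, the kinase of the pathway, the lowest at -0.47. In HEC-1-A, SMG9 was at 0.26 and UPF2 at -0.22. Of 15 listed RNAs known as decay targets or hosts, 7 were analysed here, with medians of -1.54 in RL-95-2, where 0 of 7 were above 0 and 5 were at least 2-fold lower, and 0.19 in HEC-1-A. UPP1 was the lowest in RL-95-2 at -3.92 and TBL2 the highest at -0.38, and in HEC-1-A GADD45A was the highest at 0.40 and TBL2 the lowest at -0.19. Several of the 7, among them ATF4, DDIT3 and GADD45A, are also stress-induced genes.

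Among 147 genes of these lists measured in both lines, those nearest to SRSF3 in the pair of log2 ratios were RBM8A (Euclidean distance 0.26), TRA2B (0.37) and U2AF1 (0.40). The place of U2AF1 is uncertain, because its reads may be split with U2AF1L5. Summed, these copies had 0.77 in RL-95-2 and -0.18 in HEC-1-A, beside 1.37 and -0.10 for SRSF3. SRSF3 was taken as the family member with the highest mean ratio. Nearest to SRSF11, the member with the lowest mean ratio, were SF1 (0.03), SMG6 (0.04) and MAGOHB (0.05). The likeness rests on the ratios of 2 lines alone. Over all lists, 0 genes were called over both lines by the edgeR test at an FDR of 0.05.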

How the data were processed

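Poly(A) RNA of 4 libraries, a mimic and a control library of each of 2 cell lines, was sequenced. The deposited values are raw counts for each gene and FPKM for each gene, both made by the authors. CASAVA, HISAT2 and GRCh38 (hg38) are named, per the submitters' processing notes. No counter, annotation or strand setting is given in the sources used here. The counts were fitted in edgeR 4.0.16 (R 4.3.3), TMM-scaled and filtered on low counts by group, with terms for line and transfection. Its quasi-likelihood test was adjusted by Benjamini-Hochberg over 15957 genes at an FDR of 0.05. Mimic and control were paired by the cell line in their labels (Pearson r of 0.91 across genes between deviations from the transfection means, the same in both pairs by construction). These deviations are differences between the lines, so this r says nothing of shared cultures or batches. The fit had 1 residual and 5.44 prior degrees of freedom. Within a line, 1 library stood against 1, so no p was computed. Log2 ratios of scaled CPM used a prior count of 2, and their exact 95% intervals came from both counts. Measured genes averaged 1 CPM or more in the line. Implied length, in bases, is the count divided by the library total and the FPKM, rescaled to bases. Gene positions came from GENCODE release 29 (GRCh38). The procedure was tested on simulated data, in which changed genes moved in the same direction in both lines. That setting differs from the opposite signs of most SR genes, so it does not bear on them.

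All 10 SR genes were named. Of each other list the highest and lowest ratio in each line were named, with the 3 nearest genes to 2 members. Members and lists were chosen with earlier results of these data known. Alternatives were DESeq2 1.42.0, limma 3.58.1 on log2(FPKM + 1) and log2(FPKM + 0.1), RLE or total scaling, other filters, a prior count of 0.5, removal of GC and length trends (mgcv 1.9.3, 84.2% of features matched), no line block, and each line left out.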

Additional observations from a re-analysis of the deposited data

Results flagged for a closer look

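The mimic over control ratio had opposite signs in the 2 lines, with both counting intervals off 0, for 9 of the 10 SR genes (all but SRSF11) and for 26.9% of the 11914 genes measured in both lines. The difference was not tested, since each line has 1 library per transfection. RL-95-2 minus HEC-1-A, on the log2 scale of scaled CPM, it was 1.55 for SRSF2, 1.46 for SRSF3, 1.30 for SRSF6, 1.17 for SRSF1, 0.94 for SRSF7, 0.78 for SRSF10, 0.60 for SRSF4, 0.34 for SRSF5 and -0.19 for SRSF9. The sign of SRSF9 in RL-95-2 turned with scaling by library total (0.04). Counting intervals narrow as counts rise, and the 26.9% includes genes with far fewer counts than the SR genes. The shares are thus not matched for level.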

How the results depend on the processing

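No SR gene was called over both lines under any of the 8 other fits, and SRSF4 was the 1 member called between lines under all 7 (adjusted p of 0.0074 with DESeq2 to 0.049 with limma on log2(FPKM + 1) without a filter). Over both lines DESeq2 called 2 features in place of 0 and limma on log2(FPKM + 0.1) called 3. Without the replicate block edgeR called 0, and the log2 fold change of SRSF5 turned to -0.011 from 0.01. With RLE size factors SRSF5 and SRSF9 turned to -0.0023 and -0.0027, and with DESeq2 to -0.0024 and -0.0027. With 1 line left out, the log2 fold change ranged from -0.11 to 1.06 for SRSF1, -0.33 to 1.22 for SRSF2, -0.10 to 1.37 for SRSF3, -0.13 to 0.46 for SRSF4, -0.16 to 0.18 for SRSF5, -0.30 to 0.99 for SRSF6, -0.22 to 0.72 for SRSF7, -0.085 to 0.11 for SRSF9, -0.064 to 0.72 for SRSF10 and -0.14 to 0.027 for SRSF11. The HEC-1-A end is the lower one except for SRSF9. The SR median in RL-95-2 was 0.85 with scaling by library total, 0.84 on log2(FPKM + 1) and 0.85 on log2(FPKM + 0.1), settings that also moved the median of all genes to 0.13, 0.11 and 0.14. The RL-95-2 ratio of SRSF9 was 0.044, 0.057 and 0.057 under them. In HEC-1-A the SR median ranged from -0.19 to -0.12. The number of genes differing 2-fold or more was 727 in RL-95-2 and 26 in HEC-1-A on log2(FPKM + 1), against 1476 and 144 as reported, and 942 and 29 at a minimum of 5 CPM, where fewer genes are counted. Depth did not limit the SR genes, which had at least 2184 counts, but 1 library per line and transfection leaves the spread between cultures unknown.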
